A study of Arabidopsis thaliana with 4 samples.

Results

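Cytochrome P450 genes of Arabidopsis were examined in the snATAC-seq data of root tips under control conditions and osmotic stress. The members were the nuclear protein-coding genes whose annotation symbol is CYP followed by a family number, a subfamily letter and a gene number, leaving out CYP707A, CYP86A1 and CYP86B1, which gave 213 of 27444 protein-coding genes. All plants were wild type of the accession Col-0, and nuclei came from 5-mm root tips in which all cell types are mixed. The control group (2 libraries) was grown on diluted Murashige-Skoog medium and the stress group (2 libraries) on the same medium with sorbitol, which draws water out of the root. Each library read RNA and open chromatin from the same nuclei, and only open chromatin was used here. The libraries held 6069 to 15302 called nuclei, and the control replicate 1 library had the fewest. ATAC counts per library ranged from 47853119 to 75473335, with a median of 3424 to 4851 per nucleus, the highest median again in control replicate 1. Between 2.04% and 2.35% of the called barcodes of the smaller library of a pair recurred in the other.

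P450 enzymes are membrane-bound heme proteins that take electrons from a reductase and insert an oxygen atom from O2 into a substrate. Plants hold a large number of them, sorted by sequence into families, subfamilies and larger clans. Many subfamilies have grown by tandem duplication, so that close relatives stand side by side on a chromosome. In roots they make or break down hormones, sterols, glucosinolates, coumarins, triterpenes and the monomers of lignin and cutin.

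Accessibility was measured in regions where peaks of the libraries overlap. A gene was measured where such a region, with a peak in all 4 libraries, touched its body or the 2 kb before its start. This held for 139 of the 213 P450 genes (65.3%, against 72.1% of all protein-coding genes), and all 139 passed the filter on low counts. Another 33 had a peak in 1 to 3 libraries, and 41 had no peak in any library (19.2%, against 15.1% of all protein-coding genes). A window from 1 kb before the annotated start to 200 bases after it was touched by a shared region in 84 of the 213 (39.4%, against 58.6%). A region counted for a gene can also lie over the start of a neighbouring gene. Subfamilies differed in how many of their genes could be measured. All 4 CYP86A genes, all 4 CYP86C genes and 7 of 8 CYP72A genes were measured, against 19 of 32 CYP71B genes, 15 of 24 CYP705A genes, 6 of 16 CYP71A genes and 4 of 12 CYP96A genes. Among genes with a known role, CYP716A1 (triterpene oxidation), CYP90D1 (brassinosteroid synthesis), CYP735A2 (cytokinin hydroxylation) and CYP96A15 (wax alkane oxidation) had no peak in any library. CYP79F2, CYP79A2, CYP71A13, CYP81F3 and CYP705A5 had a peak in 3 libraries at most. Counts were deposited for peaks only, so the change of these genes could not be measured.

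**Figure D1:**
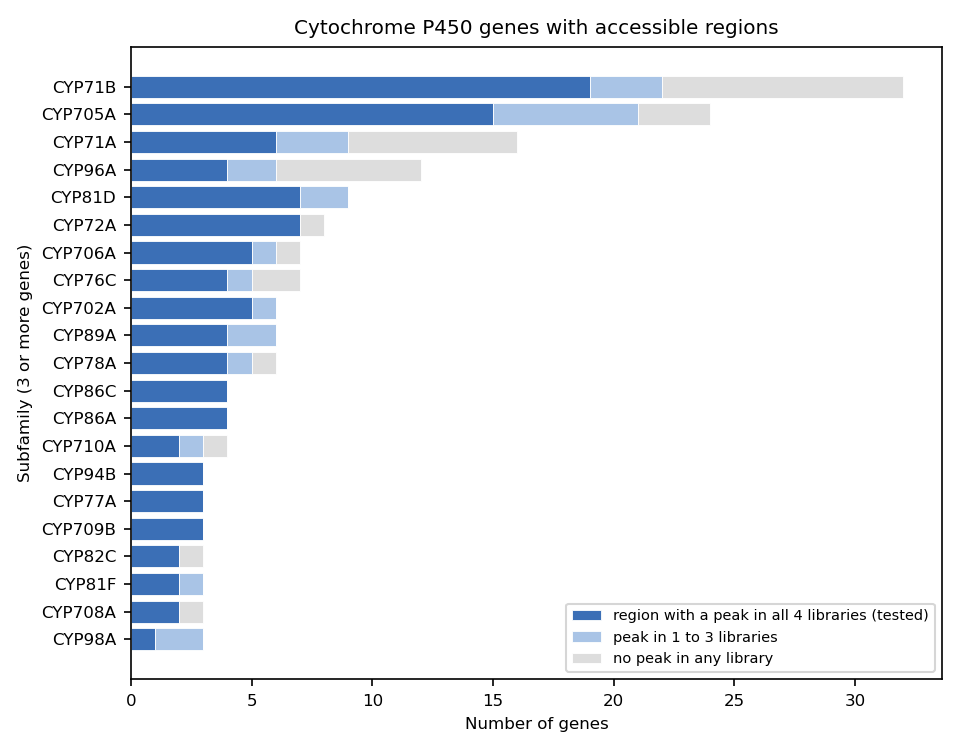
Number of P450 genes (x axis) in each subfamily with 3 or more genes (y axis), split into genes with a region that has a peak in all 4 libraries, genes with a peak in 1 to 3 libraries and genes with no peak. The CYP71B bar is the longest, with 19 of 32 genes measured, while the CYP86A, CYP86C, CYP77A, CYP94B and CYP709B bars hold measured genes only.

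Gene accessibility is given as CPM, the cut sites in a gene's regions per 1000000 cut sites counted over all genes, scaled by TMM. Divided by the length of the gene window in kb, the median level of the 139 genes was 7.37 CPM per kb, against 8.78 for all protein-coding genes tested, with a range of 2.14 to 31.1. The highest level per kb was that of CYP94B3, which oxidises the hormone jasmonoyl-isoleucine (115, 123, 128 and 121 CPM in control replicates 1 and 2 and stress replicates 1 and 2). It was followed by CYP712A1 (27.6 CPM per kb) and CYP703A2 (25.3 CPM per kb), a fatty acid hydroxylase known from the pollen wall. One of the 2 regions of CYP703A2 lies over the start of the neighbouring gene CNX3. The lowest level per kb was that of CYP735A1, a cytokinin trans-hydroxylase (12.6, 11.3, 11.8 and 11.8 CPM). None of the 4 P450 genes named here passed the test between groups. Accessibility is not transcription, so these levels do not rank the genes by expression.

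The stress comparison asked which P450 genes open or close in root tips under osmotic stress. By edgeR's quasi-likelihood test over 22820 genes, 8 of the 139 P450 genes rose (adjusted p under 0.05), where 0.701% of all genes rose. None fell, where 0.223% of all genes fell. At an unadjusted p under 0.05, 32 P450 genes were higher (12.2% of all genes) and 11 lower (9.71% of all genes), and by DESeq2 25 rose and 4 fell (7.09% and 4.09% of all genes). The median log2 change of the 139 genes was 0.037, with 81 of 139 above 0, against 49.4% of all genes above 0. In 57 of them both stress libraries were above both control libraries (28.8% of all genes), and in 35 both were below (28.5% of all genes). With 2 libraries per group, single libraries decided much of the count. There were 4 calls without stress replicate 1, all of them rises (0.473% of all genes rose), and 5 without stress replicate 2, with 3 rises and 2 falls (0.539% and 0.272% of all genes). CYP71B11, CYP86C1 and CYP71B26 were called in both cases. Without control replicate 1 there were 41 calls and without control replicate 2 there were 80, each time with all 8 among them. The share of all genes that rose or fell moved as well, to 11.5% and 8.68% without control replicate 1 and to 23.4% and 19.9% without control replicate 2. When regions lacking a peak in some libraries were added, with absent peaks counted as 0, none of the 8 passed the test, although their changes stayed between 0.22 and 0.62 and 0% of all genes passed. The study describes the libraries of a group as biological replicates. In nuclei of mixed cell types, fewer cells of a type and less accessibility per cell cannot be told apart.

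**Figure D2:**
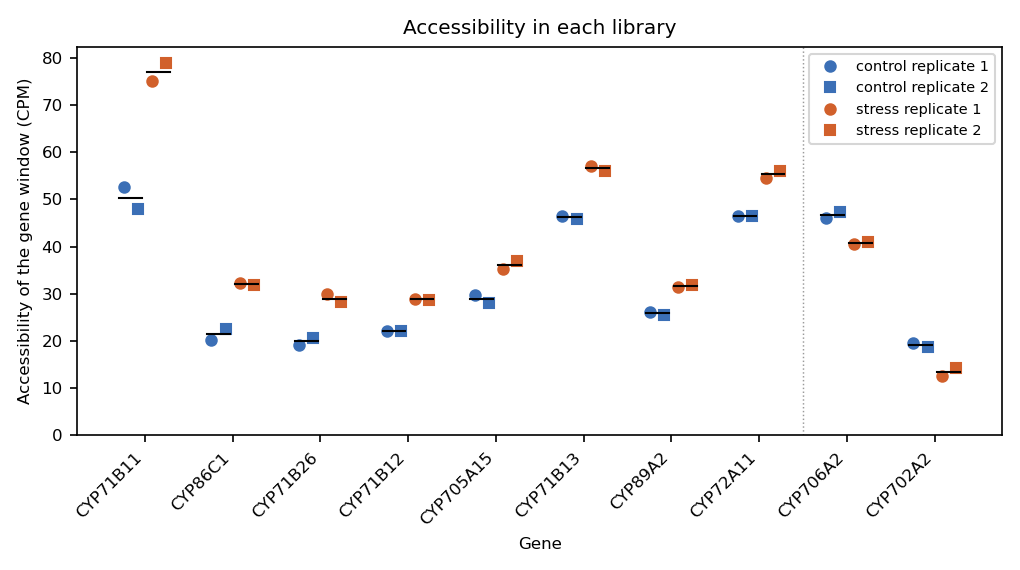
Accessibility in CPM (y axis) of the 8 P450 genes that rose and, right of the dotted line, of CYP706A2 and CYP702A2, which were lower in both stress libraries without passing the test (x axis). Each point is a library (blue, control; orange, stress) and each black line is the mean of 2 libraries. The stress libraries of CYP71B11 lie at 75.2 and 79.0 CPM, above the control libraries at 52.7 and 47.9 CPM.

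The 3 CYP71B genes CYP71B11, CYP71B12 and CYP71B13 stand in a row on the plus strand of chromosome 5, and all 3 rose. CYP71B enzymes belong to clan 71, and CYP71B15, known as PAD3, makes the defence compound camalexin. No role is given here for the 3 genes in the row. CYP71B11 (AT5G25120, chr5:8661970-8664681) was at 52.7 and 47.9 CPM in the control and 75.2 and 79.0 CPM in the stress libraries. The change was 0.62 ± 0.06 on the log2 scale (SE, edgeR, adjusted p = 0.0105), the largest among the P450 genes tested. CYP71B12 (AT5G25130, chr5:8668232-8670237) was at 22.1 and 22.2 CPM in the control and 28.8 and 28.7 CPM in the stress libraries (0.38 ± 0.05, adjusted p = 0.0327). CYP71B13 (AT5G25140, chr5:8672316-8674749) was at 46.6 and 45.8 CPM in the control and 57.2 and 56.0 CPM in the stress libraries (0.30 ± 0.04, adjusted p = 0.0318). In all 3 genes the libraries of a group lay close together. Both stress libraries were above both control libraries, an order that 28.8% of all genes had. Without stress replicate 1 the changes of CYP71B12 and CYP71B13 no longer passed the test (0.38 and 0.28), and neither did they without stress replicate 2 (0.38 and 0.31).

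The row holds 4 shared regions, all of them higher under stress, by 0.21 to 0.95. The region over the start of CYP71B11 (chr5:8661503-8662392) was at 53.4 and 54.9 CPM in the control and 65.6 and 69.6 CPM in the stress libraries (0.32 ± 0.05, adjusted p = 0.0460). The region between CYP71B12 and CYP71B13 (chr5:8670110-8670997) lies in the windows of both and is the only one of CYP71B12, so that these 2 calls are not independent. It was at 40.5 and 40.8 CPM in the control and 52.7 and 52.5 CPM in the stress libraries (0.37 ± 0.05, adjusted p = 0.0403). The region further upstream of CYP71B11 is nearest to the start of another gene, AT5G03915, and its change of 0.95 moved with the width of its peaks. The peaks were 645 and 531 bases wide in the control and 1025 and 1060 bases under stress. Counted per base of peak, through an offset in the fit, the region was at 0.13 (adjusted p = 0.186). The start region and the one between CYP71B12 and CYP71B13 kept their calls with that offset, at 0.29 and 0.34. None of the 50-base stretches of the 3 regions that rose occurs elsewhere on the chromosomes, while 9.58% of those in the region inside CYP71B13 (chr5:8674231-8675135) do.

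Sequences of the regions that rose as counted are shown because they are the stretches the calls rest on. Per base of peak, the upstream region of CYP71B11 did not pass the test. All were read from the RefSeq TAIR10.1 genome 5′ to 3′ on the strand of the gene. Capitals mark 3 short cores on either strand. ACGTG is the core bound by abscisic acid-responsive bZIP factors. The DREB factors bind a core written CCGAC. The core of WRKY factors is written TTGAC. The first is the 250 bases before the start of CYP71B11 (chr5:8661720-8661969), the second the central 300 bases of the upstream region (chr5:8660151-8660450) and the third those of the region between CYP71B12 and CYP71B13 (chr5:8670404-8670703).
CYP71B11, before the start: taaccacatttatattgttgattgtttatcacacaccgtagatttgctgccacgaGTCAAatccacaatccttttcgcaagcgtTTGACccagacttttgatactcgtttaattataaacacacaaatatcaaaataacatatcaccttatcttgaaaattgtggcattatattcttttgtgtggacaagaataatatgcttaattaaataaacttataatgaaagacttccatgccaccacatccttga
CYP71B11, upstream region: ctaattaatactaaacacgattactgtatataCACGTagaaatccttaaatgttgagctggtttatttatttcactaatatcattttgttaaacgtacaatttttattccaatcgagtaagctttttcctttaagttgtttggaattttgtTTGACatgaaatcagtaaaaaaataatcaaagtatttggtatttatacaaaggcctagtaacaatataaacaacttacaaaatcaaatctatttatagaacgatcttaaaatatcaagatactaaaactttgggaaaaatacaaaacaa
CYP71B12 and CYP71B13, region between: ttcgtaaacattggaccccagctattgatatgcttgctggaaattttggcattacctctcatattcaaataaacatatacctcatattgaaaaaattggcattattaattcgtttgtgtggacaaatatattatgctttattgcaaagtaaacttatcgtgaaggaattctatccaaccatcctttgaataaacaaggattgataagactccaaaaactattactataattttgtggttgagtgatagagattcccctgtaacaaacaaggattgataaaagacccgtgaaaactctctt
The stretch before CYP71B11 held 2 TTGAC cores, the upstream region held 1 ACGTG and 1 TTGAC core, and the region between CYP71B12 and CYP71B13 held none of the 3. The first and the third stretch shared a run of 13 bases, tttgtgtggacaa. Over all protein-coding genes, the 250 bases before the start held ACGTG in 22.9%, CCGAC in 12% and TTGAC in 44.9% of cases. Over the 213 P450 genes the shares were 27.7%, 8.92% and 49.8%. Before the starts of the 8 genes that rose, ACGTG was in 0, CCGAC in 1 and TTGAC in 3. A match is a description of letters and not evidence of binding.

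CYP86C1 and CYP71B26 rose as well, each through a single region. CYP86C1 (AT1G24540, chr1:8699650-8701458, plus strand) belongs to clan 86, whose known enzymes are mostly fatty acid hydroxylases. It was at 20.2 and 22.5 CPM in the control and 32.2 and 31.9 CPM in the stress libraries (0.58 ± 0.06, adjusted p = 0.0212). Its region (chr1:8697441-8698400) is intergenic, with its centre 1730 bases before the start. The peaks there were about equally wide in all libraries, at 910, 922, 942 and 911 bases. Per base of peak the region was at 0.56 (adjusted p = 0.0263). The other 3 CYP86C genes were at -0.16 to -0.09. CYP71B26 (AT3G26290, chr3:9632608-9634822, minus strand) was at 19.2 and 20.7 CPM in the control and 29.9 and 28.2 CPM in the stress libraries (0.54 ± 0.06, adjusted p = 0.0219). Its region (chr3:9634324-9635272) lies over the start. CYP71B26 stands in a row of 7 CYP71B genes on chromosome 3, of which 4 were measured. Of the 3 shared regions of that row, 1 rose, and the lowest was at -0.19. In either gene both stress libraries were above both control libraries, an order that 28.8% of all genes had. Over the alternatives in processing, with each library left out among them, the change of CYP86C1 ran from 0.51 to 0.66. That of CYP71B26 ran from 0.48 to 0.60.
The central 300 bases of the CYP86C1 region (chr1:8697771-8698070) and the 250 bases before the start of CYP71B26 (chr3:9634823-9635072) are shown for the same reason, with the same capitals.
CYP86C1, upstream region: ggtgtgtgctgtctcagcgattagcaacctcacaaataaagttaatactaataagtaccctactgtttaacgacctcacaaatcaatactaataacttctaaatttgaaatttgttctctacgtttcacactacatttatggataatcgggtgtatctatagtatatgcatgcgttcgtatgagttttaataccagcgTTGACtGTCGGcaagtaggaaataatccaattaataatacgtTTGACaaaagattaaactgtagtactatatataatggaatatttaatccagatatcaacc
CYP71B26, before the start: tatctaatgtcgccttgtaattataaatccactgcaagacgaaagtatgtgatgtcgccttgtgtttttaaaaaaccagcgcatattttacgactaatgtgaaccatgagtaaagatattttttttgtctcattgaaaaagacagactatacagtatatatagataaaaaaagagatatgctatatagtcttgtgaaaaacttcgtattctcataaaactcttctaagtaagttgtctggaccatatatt
The CYP86C1 region held 1 CCGAC and 2 TTGAC cores, and the stretch before CYP71B26 held none of the 3. The central 300 bases of all shared regions held ACGTG in 35.0%, CCGAC in 22.4% and TTGAC in 53.1% of cases, against 37.7%, 18.6% and 56.3% of the 167 regions of P450 genes.

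The last 3 genes that rose, CYP705A15, CYP89A2 and CYP72A11, changed by 0.25 to 0.32, and their adjusted p values lay just under the threshold. CYP89A2 (AT1G64900, chr1:24113109-24114984, plus strand) was at 26.1 and 25.6 CPM in the control and 31.4 and 31.8 CPM in the stress libraries (0.29 ± 0.05, adjusted p = 0.0495). The other 3 measured CYP89A genes were at -0.16 to -0.03. CYP72A11 (AT3G14650, chr3:4922131-4924694, plus strand) was at 46.4 and 46.5 CPM in the control. Its stress libraries were at 54.5 and 56.0 CPM (0.25 ± 0.04, adjusted p = 0.0450). Both regions of CYP72A11 are shared with neighbours, and one of them lies over the start of CYP72A13. Neither region passed the test alone. CYP705A15 (AT3G20080, chr3:7007869-7013694, plus strand) was at 29.8 and 28.0 CPM in the control and 35.2 and 36.9 CPM in the stress libraries (0.32 ± 0.05, adjusted p = 0.0495). One of its 2 regions lies over the start of the neighbouring gene TTN9, and the change of that region was 0.55 as counted and 0.12 per base of peak. In these 3 genes both stress libraries were above both control libraries, an order that 28.8% of all genes had. All 3 lost their calls without stress replicate 1 (0.35 for CYP705A15, 0.30 for CYP89A2 and 0.27 for CYP72A11) and without stress replicate 2 (0.29, 0.28 and 0.23).
The 250 bases before the start of CYP89A2 (chr1:24112859-24113108) lie in the region that rose there, and they held 1 CCGAC and 2 TTGAC cores.
CYP89A2, before the start: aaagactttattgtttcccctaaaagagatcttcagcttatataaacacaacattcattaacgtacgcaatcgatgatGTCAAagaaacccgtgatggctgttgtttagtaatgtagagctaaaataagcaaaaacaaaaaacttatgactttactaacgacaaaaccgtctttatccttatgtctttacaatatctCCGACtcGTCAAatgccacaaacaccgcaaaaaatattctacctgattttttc

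CYP72A11 and CYP705A15 stand in rows of relatives on chromosome 3. CYP72A enzymes include CYP72A9, which hydroxylates gibberellins and was not measured here. In the row from CYP72A7 to CYP72A15 all 7 measured genes were above 0, by 0.04 to 0.25, and 1 passed the test. Of its 8 shared regions 6 were above 0, with a median of 0.146, and none passed the test. CYP705A genes are found in the mustard family, and members of the subfamily modify triterpenes in roots. Of the 15 measured CYP705A genes 13 were above 0, with a median of 0.092 and a range of -0.04 to 0.32, and 1 passed the test. All 5 shared regions of the row from CYP705A15 to CYP705A23 and all 3 of the row from CYP705A28 to CYP705A33 were above 0. None of these regions passed the test. CYP705A20 and CYP705A21 shared their single region and stood at 25.2 and 25 CPM in the control and 30.7 and 29.8 CPM in the stress libraries (0.27 ± 0.05, adjusted p = 0.0624). In CYP71B, 13 of 19 measured genes were above 0 and 4 passed the test, all in the direction of a rise. In the sister subfamily CYP71A, the camalexin enzymes CYP71A12 and CYP71A13 were not measured. CYP71A had 1 of 6 measured genes above 0 and a median of -0.064, and none passed the test. At an unadjusted p under 0.05, 1 was lower and 0 higher (9.71% and 12.2% of all genes). By DESeq2 0 passed (7.09% of all genes rose and 4.09% fell). Over all genes, 49.4% were above 0 and 0.701% rose by edgeR. Neighbours share regions, so the genes of a row are not independent measurements.

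**Figure D3:**
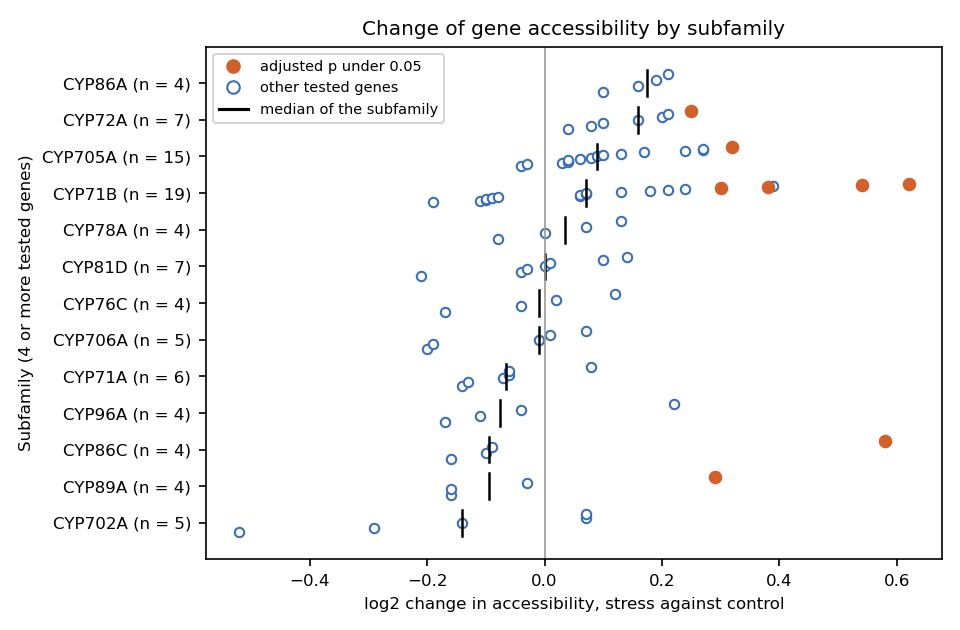
log2 change in gene accessibility between stress and control (x axis) for the measured genes of each subfamily with 4 or more of them (y axis). Filled points passed the test, open points did not, and black bars are medians. All CYP86A and CYP72A points lie right of 0, CYP71B spans -0.19 to 0.62, and the lowest point is CYP702A2 at -0.52.

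The 5 lowest changes did not pass the test. CYP702A2 (AT4G15300, chr4:8730499-8732851, minus strand) was at 19.5 and 18.8 CPM in the control and 12.5 and 14.2 CPM in the stress libraries (-0.52 ± 0.09, adjusted p = 0.0519). CYP702A genes belong to clan 85, the clan of the brassinosteroid enzymes, and have no settled role. CYP702A2 shares its single region with its neighbour CYP702A3 on the opposite strand, which was at 33.4 and 35.1 CPM in the control and 26.5 and 29.6 CPM in the stress libraries (-0.29 ± 0.06, adjusted p = 0.0825). Both stress libraries were below both control libraries in each, an order that 28.5% of all genes had. The 3 other measured CYP702A genes were at -0.14, 0.07 and 0.07. CYP702A2 and CYP702A3 passed the test by DESeq2. Over the alternatives in processing their changes ran from -0.61 to -0.43 and from -0.37 to -0.05. CYP706A2 was at 46.1 and 47.3 CPM in the control and 40.6 and 41.0 CPM in the stress libraries (-0.20 ± 0.04, adjusted p = 0.0841). CYP706A5 was at 20.6 and 18.9 CPM in the control and 17.2 and 17.6 CPM in the stress libraries (-0.19 ± 0.07, adjusted p = 0.204). CYP81D3 (-0.21 ± 0.13) overlapped between groups, since control replicate 2 at 16.7 CPM was as low as the stress libraries at 17.2 and 16.6 CPM. The central 300 bases of the region between CYP702A2 and CYP702A3 (chr4:8734855-8735154, strand of CYP702A2), shown as the counterpart of the regions that rose, held 2 ACGTG, 1 CCGAC and 2 TTGAC cores.
CYP702A2 and CYP702A3, region between: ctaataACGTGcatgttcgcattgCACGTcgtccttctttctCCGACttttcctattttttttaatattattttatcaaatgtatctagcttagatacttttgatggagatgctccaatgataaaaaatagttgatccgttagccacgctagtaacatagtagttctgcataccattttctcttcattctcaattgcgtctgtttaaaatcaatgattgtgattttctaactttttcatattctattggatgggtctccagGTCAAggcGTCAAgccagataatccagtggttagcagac

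By position, the P450 genes held 167 shared regions, 27 of them in the windows of more than 1 P450 gene. Of these, 88 were above 0, against 49.2% of all regions. Regions that rose numbered 6, where 0.927% of all regions rose, and none fell by edgeR, where 0.218% of all regions fell. By DESeq2 27 rose and 3 fell, where 7.93% and 4.45% of all regions did. Of the 167, 56 lay over an annotated P450 start, 67 in a gene body and 44 upstream only. Over the start lay 33.5% of the P450 regions, against 67.5% of the regions of all protein-coding genes. Of the start regions 36 of 56 were above 0, with a median of 0.049, against 49.5% of the start regions of all protein-coding genes. Of the upstream regions 18 of 44 were above 0, with a median of -0.039, against 55.1%. The regions that rose were 3 over the start, 1 in a body and 2 upstream.

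**Figure D4:**
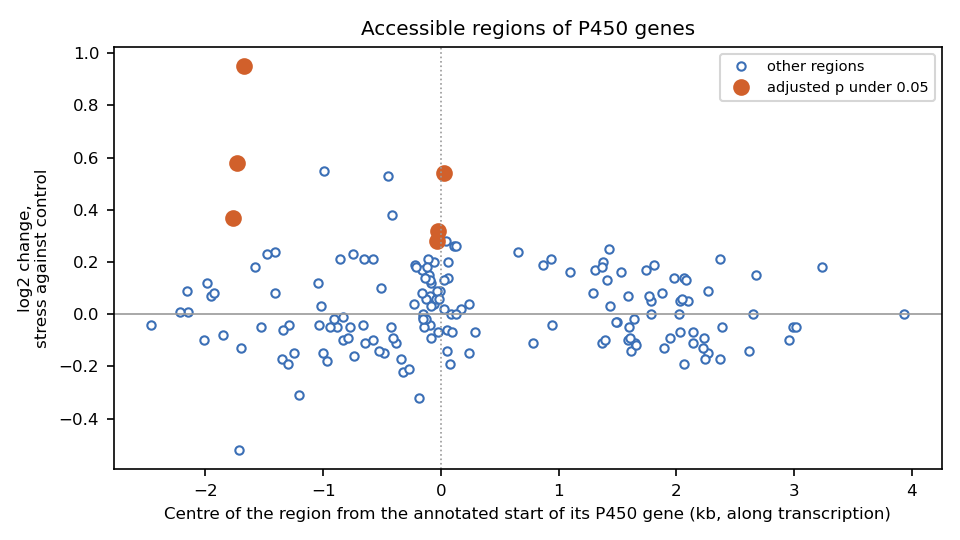
log2 change of each region between stress and control (y axis) against the distance of its centre from the annotated start of its nearest P450 gene, in kb along the direction of transcription (x axis). Filled points are the 6 regions that passed the test. They fall into 3 close to the start and 3 more than 1 kb before a start, and the open point at -0.52 is the region between CYP702A2 and CYP702A3.

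Members with known roles were grouped by pathway, and none of the 43 measured genes in these lists passed the test. At an unadjusted p under 0.05, 10 were higher and 0 lower, against 12.2% and 9.71% of all genes. By DESeq2 5 rose and 0 fell, against 7.09% and 4.09% of all genes. In the hormone pathways the changes were small. CYP714A1 and CYP714A2, which inactivate gibberellins, share all their regions and were at 28.1 and 33.3 CPM in the control and 35.2 and 33.9 CPM in the stress libraries (0.17 ± 0.08, adjusted p = 0.256). CYP88A3, which makes gibberellin precursors, was at 0.01 ± 0.06. Its only region lies over the start of the neighbouring gene AT1G05150, with its centre 3936 bases from the start of CYP88A3. CYP711A1, known as MAX1 of strigolactone synthesis, was at 25.5 and 25.1 CPM in the control. The stress libraries were at 27.8 and 28.6 CPM (0.16 ± 0.05, adjusted p = 0.144). Both lay above both control libraries, an order that 28.8% of all genes had. CYP72C1, which inactivates brassinosteroids, was at 0.11 ± 0.05, and the cytokinin enzyme CYP735A1 at -0.01 ± 0.09. CYP94B1, CYP94B3 and CYP94C1, which together oxidise jasmonoyl-isoleucine, were at 0.07, 0.07 and 0.03, and in all 3 the groups overlapped.

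In the defence pathways, CYP79B2 and CYP79B3, which turn tryptophan into indole-3-acetaldoxime, were both at 0.08 (SE 0.05 and 0.08). CYP83B1, the next enzyme towards indole glucosinolates, was at 0.01 ± 0.05. CYP81F2 and CYP81F4, which hydroxylate indole glucosinolates, were at -0.09 ± 0.07 and 0.08 ± 0.05. CYP71B6, which acts on indole-3-acetonitrile, was at 27.2 and 29.4 CPM in the control and 33.2 and 32.2 CPM in the stress libraries (0.21 ± 0.06, adjusted p = 0.107). CYP82C2 of indole-derived cyanogenic compounds was at -0.06 ± 0.09, and CYP79F1 of the methionine-derived glucosinolates at -0.14 ± 0.07. CYP82C4, which makes a coumarin released under iron shortage, was at -0.05 ± 0.06. Among triterpene genes, CYP708A2 of the thalianol cluster was at 16.6 and 17.6 CPM in the control and 19.8 and 19.2 CPM in the stress libraries (0.19 ± 0.07, adjusted p = 0.185). CYP71A16 and CYP705A12 of the marneral cluster were at 0.08 ± 0.06 and 0.04 ± 0.04. The linalool oxidases CYP71B31, CYP76C1 and CYP76C3 were at -0.10, 0.02 and 0.12.

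The 4 CYP86A genes are fatty acid omega-hydroxylases of cutin synthesis. Each had a single shared region, and none of these regions touched the window around the start. Those of CYP86A2, CYP86A4 and CYP86A8 lie inside the gene body, and that of CYP86A7 lies mostly beyond the end of the gene. All 4 genes were higher in both stress libraries than in both control libraries, an order that 28.8% of all genes had. None of the 4 genes passed the test. At an unadjusted p under 0.05, 3 were higher (12.2% of all genes), and by DESeq2 2 rose (7.09% of all genes). CYP86A4 was at 65.7 and 73.3 CPM in the control and 80.2 and 80.4 CPM in the stress libraries (0.21 ± 0.06, adjusted p = 0.110). CYP86A2 was at 64.9 and 73.6 CPM in the control and 79.2 and 78.6 CPM in the stress libraries (0.19 ± 0.06, adjusted p = 0.145). CYP86A8 (0.16 ± 0.06) and CYP86A7 (0.10 ± 0.06) followed. In CYP86A2, CYP86A4 and CYP86A8 control replicate 1 lay further below control replicate 2 than the stress libraries lay apart. CYP77A4 and CYP77A6, which oxidise the fatty acid chain, were at 0.13 ± 0.04 and 0.08 ± 0.05. The pollen wall genes CYP703A2 and CYP704B1 were at -0.04 ± 0.05 and -0.14 ± 0.07, and CYP86C3 at -0.10 ± 0.07. Of the sterol genes, CYP710A1, a sterol C22-desaturase that makes stigmasterol, was at 53.1 and 67.0 CPM in the control and 74.9 and 76.4 CPM in the stress libraries (0.33 ± 0.09, adjusted p = 0.120). Its control libraries differed by more than the gap between control replicate 2 and the stress libraries. Its neighbour CYP710A2 was at -0.02 ± 0.05, and CYP51G1, the sterol demethylase, at 55.2, 56.5, 55.3 and 56.1 CPM. The only region of CYP51G1 lies over the start of the neighbouring gene AT1G04863. CYP71B3, whose role is not given here, was at 26.2 and 31.4 CPM in the control and 35.9 and 39.7 CPM in the stress libraries (0.39 ± 0.09, adjusted p = 0.0848). Of the rest, CYP98A3 of lignin synthesis was at 0.04 ± 0.05 and the carotenoid hydroxylase CYP97B3 at 0.12 ± 0.04. The other carotenoid hydroxylase, CYP97A3, was at 21.7, 24.5, 23.4 and 22.8 CPM. The organ growth genes CYP78A6, CYP78A7 and CYP78A9 were at 0.07, -0.08 and 0.13, and CYP78A8 stood at 71.7, 73.6, 73.1 and 72.4 CPM.

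Enzymes and regulators of the same pathways were set beside the P450 genes. The reductases ATR1 and ATR2, which feed electrons to P450s, were at 0.02 ± 0.05 and -0.05 ± 0.04. Of 8 measured partners in glucosinolate synthesis 2 were above 0, led by the regulator MYB34 (0.23 ± 0.06). The lowest, BCAT4, an aminotransferase of methionine chain elongation, was at 8.07 and 17.2 CPM in the control and 6.59 and 7.54 CPM in the stress libraries (-0.85 ± 0.30, adjusted p = 0.168). Its value rested on control replicate 2, without which it was -0.19. All 8 phenylpropanoid partners were above 0, with a median of 0.140, led by the lignin methyltransferase COMT1 (0.25 ± 0.05, adjusted p = 0.0659). Of 5 brassinosteroid partners the 3 above 0 were the receptor BRI1 (0.17 ± 0.05) and the transcription factors BZR1 (0.14 ± 0.05) and BES1 (0.25 ± 0.05, adjusted p = 0.0621). The synthesis enzymes DWF1 and DET2 were at -0.09 ± 0.05 and -0.13 ± 0.04. The thalianol cluster genes THAS1 and THAA2 were at 0.09 ± 0.09 and 0.03 ± 0.05. None of the 25 measured partners and reductases passed the test by edgeR. At an unadjusted p under 0.05, 9 were higher and 2 lower, against 12.2% and 9.71% of all genes. By DESeq2 5 rose and 0 fell, against 7.09% and 4.09% of all genes. Another 15 P450 genes carry another symbol in the annotation, and 12 were measured, such as C4H, DWF4, PAD3 and FAH1. They ranged from -0.12 to 0.18 with a median of 0.027, and none passed the test. At an unadjusted p under 0.05, 1 was higher and 0 lower, and 0 passed by DESeq2, against the same shares of all genes.

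Markers of 8 root cell types were followed for shifts in the mix of cells. Of 130 marker genes 78 were measured, and none passed the test between groups by edgeR. At an unadjusted p under 0.05, 11 were higher and 7 lower (14.1% and 8.97%, against 12.2% and 9.71% of all genes). By DESeq2 7 rose and 3 fell, against 7.09% and 4.09% of all genes. Median changes per list ran from -0.056 for root cap markers to 0.093 for cortex markers. Their part in the changes of P450 genes was not tested. Nuclei were also scored by cut sites at marker genes, and the top 10% of each list in each library were compared with all other nuclei of that library. The marker genes kept aside to check this did not separate (0 of 26 passed the test by edgeR, 1 at an unadjusted p under 0.05), so the scored nuclei are a range of a score and not a cell type. In cortex-scored nuclei 3 of 139 P450 genes were higher, where 0.14% of all genes were: CYP714A1 and CYP714A2 with the same counts (0.27 ± 0.06, adjusted p = 0.00826, in 4 of 4 libraries) and CYP71B7 (0.16 ± 0.04, adjusted p = 0.0482). In endodermis-scored nuclei CYP71B12 was higher (0.27 ± 0.07, adjusted p = 0.0295, in 4 of 4 libraries), where 0.0789% of all genes were. CYP78A7 was lower in trichoblast-scored nuclei (-0.30 ± 0.08, adjusted p = 0.0236), where 1.18% of all genes were, and CYP705A8 in xylem-scored nuclei (-0.25 ± 0.07, adjusted p = 0.0427), where 0.53% were. CYP71B9 was lower in phloem-scored nuclei (-0.27 ± 0.06, adjusted p = 0.00466), where 0.846% of all genes were. No P450 gene was called in the other directions and lists. There, the shares of all genes were 0.776% higher for trichoblast, 0.0395% higher and 0.377% lower for atrichoblast, 0.693% lower for cortex and 0.513% lower for endodermis scores. They were 0.0789% higher and 0.0219% lower for root cap, 0.153% higher for xylem, 0.522% higher for phloem and 0.00877% higher for meristem scores. These 7 calls over 8 lists fell to between 0 and 4 when a library was left out, with 0 without stress replicate 2. CYP708A2, CYP71B34 and CYP86A2, which the study lists as cell type markers, passed the test in none of the 8 lists. Their changes ran from -0.15 to 0.22, -0.06 to 0.08 and -0.08 to 0.12.

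**Figure D5:**
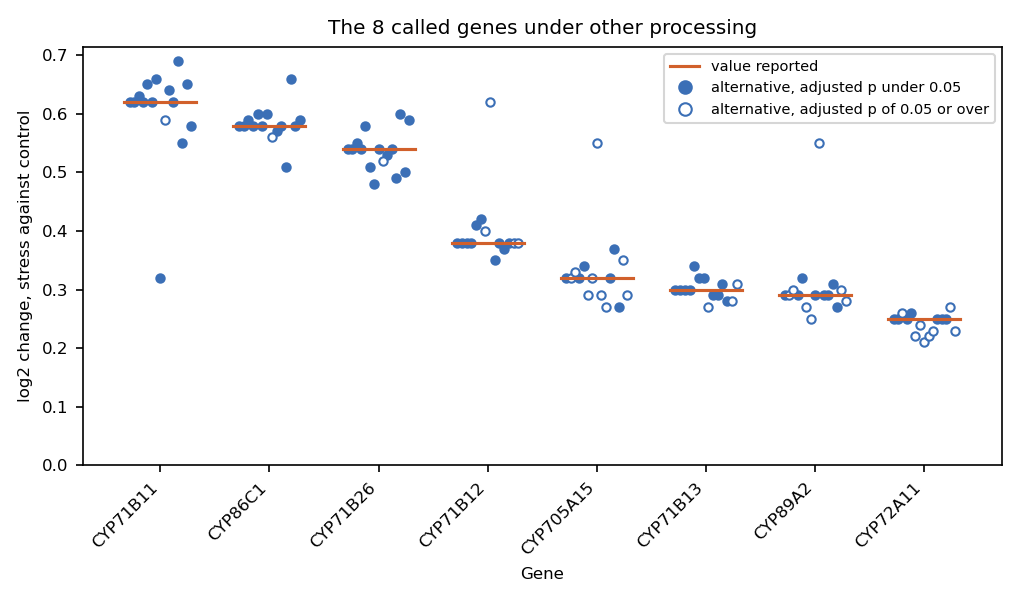
log2 change between stress and control (y axis) of the 8 P450 genes that rose (x axis). Orange lines are the reported values. Points are the alternatives run on genes, filled where the adjusted p was under 0.05. The offset for peak width was run on regions only and is not among the points. All points lie above 0, and for CYP71B11, CYP86C1 and CYP71B26 a single point each is open.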

How the data were processed

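Nuclei of Arabidopsis root tips were profiled by 10x multiome in 2 control and 2 stress libraries, grouped by their GEO labels. Per the submitters' processing notes the authors used Cell Ranger ARC 2.0.2, Signac 1.7.0, Seurat 4.3.0 and the genome build TAIR10. The authors deposited, for each library, peaks called in that library alone and raw counts per barcode, with RNA counts in the first 32833 rows and ATAC cut sites per peak in the others. The ATAC rows carry no names either and were matched to the peaks by their order, which was checked between libraries: summed counts of overlapping peaks correlated at a rank correlation of 0.936 to 0.991, and at 0.191 to 0.225 after a shift by 1 row. The RNA rows carry no gene names in the files used here and served only to call nuclei.

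Nuclei had over 1000 and under 100000 ATAC counts and over 1000 and under 25000 RNA counts, the count limits of the study's methods. Its further limits on nucleosome signal and TSS enrichment need fragment positions and were not applied, and the study kept far fewer nuclei than were called here. No doublet caller was run. Counts were summed per library over the called nuclei. Peaks overlapping by at least 1 base were merged, with widths between 20 and 10000 bases, and 18340 of 27677 merged regions had a peak in all 4 libraries. Gene windows were the body and 2 kb upstream in the RefSeq TAIR10.1 annotation, whose chromosomes 1 to 5 have the same coordinates as TAIR10. Peaks lay at a gene start in 60.1% to 63.8% of cases, and in 23.5% to 23.8% after a shift of 10000 bases.

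Genes and regions were tested with edgeR 4.0.16 (quasi-likelihood, TMM, filterByExpr) in R 4.3.3, two-sided, with Benjamini-Hochberg adjustment over all 22820 genes or 18340 regions and a threshold of 0.05. DESeq2 1.42.0 was an alternative. On simulated data with the same spread for every gene, the gene test recovered 100 of 100 genes changed by 0.5 on the log2 scale. Of its calls over 22820 genes, 5.21% were false. Real genes differ in spread, and changes below 0.5 were not simulated. These figures are therefore not the power or the error rate in the real libraries. Cut sites read by PCR are not independent molecules, so errors are given between libraries and not from counts within one. Python 3.11.15 with numpy 2.4.6, pandas 2.3.3, scipy 1.17.1 and matplotlib 3.10.9 did the rest.

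Genes named were those past the threshold, the 5 largest rises and falls, the measured members of the role lists, the rises in marker-scored nuclei and the study's P450 markers. Genes named for their level, their row, a fall in marker-scored nuclei or a missing peak were chosen after their values were seen. The members and all lists were chosen with earlier results of these data known. Alternatives covered the test, scaling, filter, nuclei, gene window, regions, fragments, pairing and each library left out. The offset for peak width was run on regions only.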

Additional observations from a re-analysis of the deposited data

Results flagged for a closer look

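In 12 of the 268 regions of P450 genes both stress libraries had a peak and neither control library did, so these regions entered no comparison. They made up 4.48% of the P450 regions, against 4.06% of all regions, and the reverse pattern occurred once, at CYP86C2 (0.373%, against 0.827% of all regions). The mean of the stress libraries, in CPM of all cut sites in called nuclei, was 40.0 and 44.8 for 2 regions of CYP86A8, 39.5 for a region of CYP72A7 and CYP72A8, 32.0 for CYP81D8 and 31.5 for CYP81D1. It was 29.7 for CYP705A6, 29.2 for CYP705A18 and CYP705A19, 27.3 for CYP714A1, 23.6 for CYP706A5, 20.1 for CYP86C2, 17.1 for CYP71A18 and 16.4 for CYP71B35 and CYP71B36. Counts were deposited for peaks only, so an absent peak does not show closed chromatin. Another 39 P450 regions had a peak in all libraries but control replicate 1 (14.6%, against 12.7% of all regions), the library with the fewest nuclei.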

How the results depend on the processing

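Shares of all genes or regions that rose and fell under the same setting are given in parentheses. Against 8 P450 genes that passed the test (0.701% and 0.223%), 29 did by DESeq2 (7.09% and 4.09%) and 20 with the replicate block, as 17 rises and 3 falls (4.11% and 1.71%), all 8 among them in both cases. With library totals 5 did (0.241% and 0.105%), with all barcodes 5 (0.535% and 0.184%) and without the deepest 5% of nuclei 4 (0.241% and 0.0789%). With a window around the start, which measured 84 P450 genes, 3 did (0.818% and 0.379%), and with all merged regions 0. Leaving out a library gave 4 (0.473% and 0.215%) to 80 (23.4% and 19.9%). Against 6 regions (0.927% and 0.218%), 30 passed by DESeq2 (7.93% and 4.45%), 14 with the replicate block (3.54% and 1.17%) and 0 with all merged regions, and leaving out a library gave 2 (0.142% and 0.0818%) to 88 (23.4% and 20%). Against 7 calls in marker-scored nuclei (0.744% of all genes over the lists, both directions), there were 2 with the top 5% of nuclei (0.432%), 1 with nuclei of a single list (0.317%) and 3 without the deepest 5% of nuclei (0.542%). Leaving out a library gave 0 (0.492%) to 4 (0.52%). Deviations of libraries with the same replicate number correlated at 0.005 over genes and -0.009 over regions. Whether libraries with the same number were handled together is not given by the labels and was not tested.

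Among 827 values of 57 named genes under the alternatives, 24 changed sign, none of them for a gene that rose and none with a reported change over 0.21. With all merged regions the changes became 0.63 for CYP704B1, 0.96 for CYP706A5, -0.19 for CYP71B6, -0.28 for CYP79B3, 0.31 for CYP79F1, 0.34 for CYP81D3, 0.44 for CYP81F2, -0.93 for CYP86A7, 0.38 for CYP86C3 and -0.06 for CYP88A3. That alternative sets a count of 0 where a library has no peak. CYP735A1 was at 0.01 without the deepest 5% of nuclei, CYP76C1 at -0.01 with all barcodes and CYP88A3 at -0.01 with fragments. With a library left out the range was -0.09 to 0.01 for CYP703A2, -0.08 to 0.04 for CYP710A2, -0.09 to 0.06 for CYP735A1, -0.06 to 0.10 for CYP76C1, -0.02 to 0.20 for CYP79B3, -0.41 to 0.02 for CYP81D3, -0.18 to 0.06 for CYP82C2, -0.13 to 0.03 for CYP82C4, -0.03 to 0.06 for CYP83B1 and -0.04 to 0.05 for CYP88A3. The cause was not tested for the other changes.

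The test rests on 2 residual degrees of freedom, and the biological coefficient of variation over genes was 0.0511 with all 4 libraries, 0.0257 when either control library was dropped and 0.0674 when either stress library was.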
